A study of Mus musculus with 28 samples.

Results

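The oxysterol axis described here was made up of 4 genes. Ch25h, Cyp7b1 and Hsd3b7 encode enzymes that make or turn over oxysterols, and Gpr183 encodes their receptor. They were chosen by name from a table of 54532 genes. The choice was made because Gpr183 was the gene with the lowest log2 fold change in VWF-treated against control macrophages at 3.5 h, so that comparison is given below as a description, without a test. In it, Gpr183 lay lowest of 8200 genes at a log2 fold change of -5.47, and the next gene, the lysophosphatidic acid receptor gene Lpar6, lay at -4.66. Of the 4 genes, 2 (Ch25h and Gpr183) reached 10 TPM (a level corrected for transcript length and library depth) in at least 1 culture, as did 8867 genes of the table.

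Transcripts were counted by bulk RNA sequencing in 28 cultures of macrophages (BMDM) that had been grown with M-CSF from the bone marrow of C57/B6JB mice of 8 to 12 weeks. Control cultures received PBS (5 at 3.5 h and 5 at 16 h), VWF-treated cultures received 10 µg/ml of plasma-derived VWF, the large clotting glycoprotein that tethers platelets (5 at each time), and LPS-treated cultures received 100 ng/ml of the bacterial cell wall lipid LPS (4 at each time). The medium of all groups held M-CSF and 1 mM CaCl2. The titles call the replicates biological. Whether each came from another mouse is not given, so p-values measure the spread between these cultures.

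Ch25h makes 25-hydroxycholesterol from cholesterol. Cyp7b1 adds a hydroxyl group at its 7alpha position to give 7alpha,25-dihydroxycholesterol, the strongest known ligand of the receptor Gpr183 (also called EBI2), and Hsd3b7 removes that ligand by oxidising it. Gpr183 is a Gi-coupled receptor that steers B cells, dendritic cells and macrophages along ligand gradients in lymphoid tissue, and macrophage Ch25h is known as a gene that responds to interferon and to Toll-like receptor ligands.

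In GRCm38, Ch25h is a single exon of 1387 bases at chr19:34473778-34475164 on the minus strand. Gpr183 lies at chr14:121952551-121965195 on the minus strand, within the gene Ubac2 on the opposite strand but with no base shared between exons. Cyp7b1 spans chr3:18071950-18243338 on the minus strand in 6 exon blocks. Hsd3b7 lies at chr7:127800604-127803802 on the plus strand. The 250 bases before the RefSeq start site are shown for the 2 genes whose levels moved most, in the gene's own direction, with matches to the searched motifs in capitals. The Ch25h window is chr19:34475149-34475398 and the Gpr183 window is chr14:121965194-121965443, both on the minus strand of GRCm38.p6.
Ch25h: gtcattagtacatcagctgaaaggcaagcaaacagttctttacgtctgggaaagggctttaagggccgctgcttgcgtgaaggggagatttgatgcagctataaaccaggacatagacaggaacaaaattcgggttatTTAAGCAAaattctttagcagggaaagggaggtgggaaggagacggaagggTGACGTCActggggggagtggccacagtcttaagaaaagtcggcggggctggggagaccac
Gpr183: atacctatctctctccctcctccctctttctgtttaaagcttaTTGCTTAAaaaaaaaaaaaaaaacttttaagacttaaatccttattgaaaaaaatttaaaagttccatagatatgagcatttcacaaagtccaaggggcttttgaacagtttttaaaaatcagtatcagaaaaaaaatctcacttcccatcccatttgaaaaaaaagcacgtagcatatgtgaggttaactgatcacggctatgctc

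The search covered both strands for the cyclic AMP response element (CRE, TGACGTCA), C/EBP (TTGCNNAA), AP-1 (TGANTCA), the STAT element GAS (TTCNNNGAA), PU.1 (GAGGAAGT), and the interferon element ISRE and NF-κB by their consensus. The Ch25h window held 1 CRE, from 61 to 54 bases before the start, which 1.55% of 32851 mouse promoter windows of that length also held. It held 1 C/EBP match, from 112 to 105 bases before the start, and the Gpr183 window held 1, from 207 to 200 bases before the start. C/EBP matches occurred in 9.56% of all windows. None of the other 5 motifs was found in either window, at shares of 6.75% (AP-1), 2.98% (ISRE), 7.02% (GAS), 2.44% (PU.1) and 3.9% (NF-κB) of all windows. The windows differ in base composition, with a GC content of 50.4% for Ch25h and 32% for Gpr183. A match is a string of letters and not a measured binding site.

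Total counts per culture lay between 41131209 and 77699206. A pair of 16 h cultures stood apart. Control replicate 5 had 16690 genes detected and LPS replicate 4 had 16011, against 17535 or more in each other culture, and their summed macrophage markers were the lowest of all cultures at 7670 and 9179 TPM. Log2 fold changes named below that hold these cultures are also given without them, a choice made after seeing the data. All 8 macrophage markers, among them Adgre1, Csf1r and Lyz2, reached 10 TPM, 7 of them in every culture. Of the other marker lists, 1 of 8 dendritic cell, 1 of 7 B cell, 0 of 8 T and NK cell, 4 of 9 neutrophil and 3 of 7 stromal genes reached 10 TPM in any culture. Levels below are CPM (counts scaled by library depth and TMM factors), and groups are given as mean ± SD. A gene was called changed at an adjusted p under 0.05 and an absolute log2 fold change over 1.

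Ch25h, the enzyme that opens the pathway, was highest in VWF-treated cultures at 3.5 h and had returned to the control range or below by 16 h, whereas it stayed above control with LPS. At 3.5 h the 5 control cultures held 10.4, 9.16, 7.66, 9.17 and 8.65 CPM of Ch25h. The 5 VWF-treated cultures held 276, 330, 435, 484 and 299 CPM. The 4 LPS-treated cultures held 179, 144, 226 and 231 CPM. All treated cultures lay above all controls, and the lowest VWF-treated culture lay above the highest LPS-treated culture. Group means were 9.01 ± 0.995 CPM in control, 365 ± 90.1 CPM with VWF and 195 ± 41.4 CPM with LPS, 40.5-fold and 21.7-fold over control.

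For VWF against control at 3.5 h the log2 fold change of Ch25h was 5.35 (SE 0.182), the rank 48 from the top of 8200 genes, of which 14.7% were called. For LPS against control it was 4.44 (SE 0.159, adjusted p = 1.51e-09, by Benjamini-Hochberg from edgeR's quasi-likelihood test). Of the 8190 genes reaching 10 TPM there, 24.5% were called. VWF exceeded LPS by 0.93 on the log2 scale (SE 0.192, adjusted p = 0.00254), under the fold threshold, so that 0 of the axis genes reaching 10 TPM were called where 11.4% of 7500 genes were. With scaling by library size alone the difference was 1.23, without LPS 3.5 h replicate 3 it was 1.01 and without LPS 3.5 h replicate 4 it was 1.02, each then called.

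At 16 h the control cultures held 7.27, 6.97, 6.49, 3.92 and 5.79 CPM of Ch25h. The VWF-treated cultures held 4.57, 3.19, 3.45, 5.92 and 0.694 CPM, the last from 38 reads in replicate 5. The LPS-treated cultures held 39.4, 32.0, 29.8 and 40.3 CPM. VWF and control cultures overlapped, and every LPS-treated culture lay above all of them. The log2 fold change with VWF was -0.79 (SE 0.435, adjusted p = 0.229), not called, where 8.71% of 7798 genes were. Without VWF 16 h replicate 5 it was -0.52 (adjusted p = 0.169), and without control 16 h replicate 5 it was -0.81 (adjusted p = 0.171). With LPS Ch25h rose by 2.56 (SE 0.197, adjusted p = 4.05e-06), and with both cultures that stood apart left out by 2.47. For VWF against LPS the log2 fold change was -3.30 (SE 0.456, adjusted p = 1.49e-04), and without LPS 16 h replicate 4 it was -3.24.

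**Figure D1:**
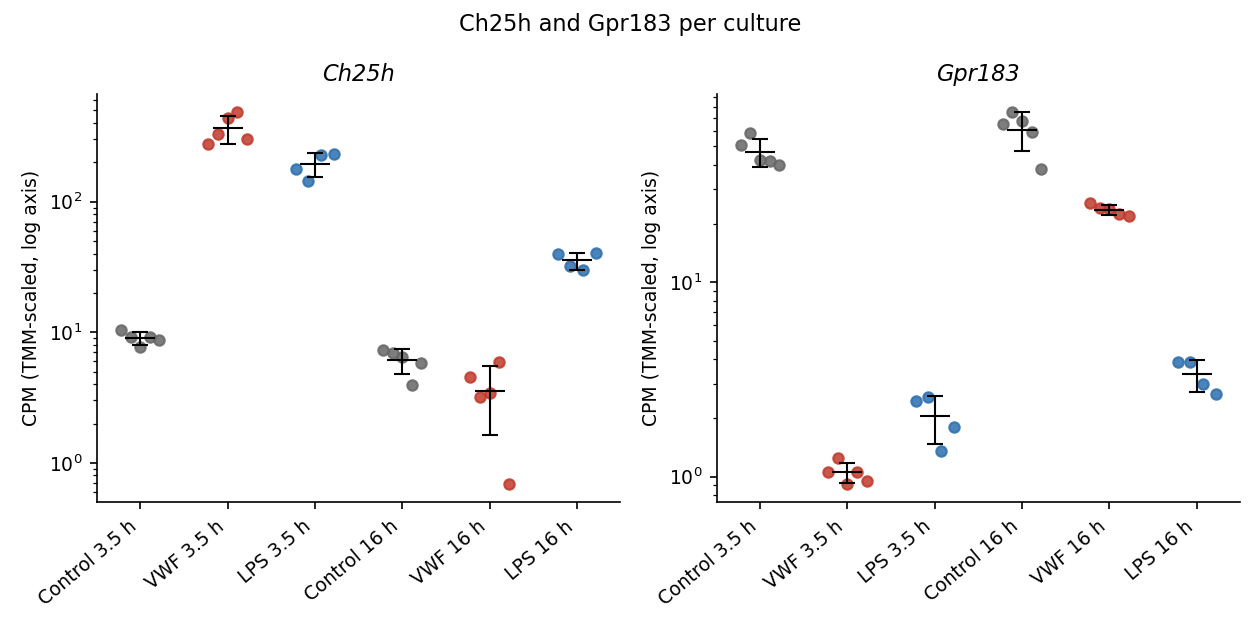
Level of Ch25h (left) and Gpr183 (right) in CPM on a log axis for each culture of the 6 groups, with control in grey, VWF in red and LPS in blue, and the mean ± SD in black. Ch25h reached 276 to 484 CPM with VWF at 3.5 h, where Gpr183 lay between 0.920 and 1.24 CPM, and at 16 h the VWF cultures had moved back toward control for both genes.

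Over time Ch25h fell with both agents. From 3.5 h to 16 h in VWF-treated cultures it fell by 6.67 on the log2 scale (SE 0.470, adjusted p = 2.97e-07), the rank 11 from the lowest of 7927 genes, of which 21.4% were called. In LPS-treated cultures it fell by 2.43 (SE 0.180, adjusted p = 6.06e-06), which was -2.50 without LPS 16 h replicate 4, where 28.1% of 6987 genes were called. In control cultures the change was -0.56 (SE 0.176, adjusted p = 0.0261), or -0.54 without control 16 h replicate 5, under the fold threshold, where 9.08% of 8333 genes were called. The LPS effect was smaller at 16 h than at 3.5 h by a log2 difference of -1.87 (SE 0.248, adjusted p = 9.34e-06), or -1.95 with both cultures that stood apart left out, and 26.3% of 8748 genes were called in that test. The matching difference for VWF was -6.10 (SE 0.482), or -6.14 without control 16 h replicate 5, and was not tested, because it holds the comparison that chose the genes. The antisense-side neighbour Gm26902, a noncoding RNA that shares 11.5% of the Ch25h exon on the opposite strand, did not exceed 1.47 CPM in any culture. At 3.5 h Gm26902 had 0.195 ± 0.139 CPM in control, 0.858 ± 0.201 with VWF and 0.563 ± 0.343 with LPS. At 16 h it had 0.287 ± 0.179 CPM in control, 0.185 ± 0.0684 with VWF and 1.22 ± 0.458 with LPS. Its relation to Ch25h was not tested.

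Summed dendritic cell markers lay above control where Ch25h did, with both agents at 3.5 h and with LPS at 16 h. At 3.5 h they went from 0.919 to 1.60 TPM in control to 8.82 to 10.4 TPM with VWF and 10.8 to 12.2 TPM with LPS. There LPS lay above VWF, the reverse of the order of Ch25h. At 16 h they lay at 0.690 to 1.37 TPM in control, 0.702 to 1.75 TPM with VWF and 8.04 to 13.0 TPM with LPS, so that LPS lay above the other groups, as for Ch25h. Their part in the result was not tested. In that list Xcr1 alone exceeded 1.23 TPM, with a highest value of 11.5 TPM, and the defining gene Flt3 did not exceed 0.0670 TPM in any culture.

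Gpr183, the receptor, moved in the opposite direction to Ch25h at 3.5 h, and its lowest levels were those of the VWF-treated cultures at that time. The 5 control cultures at 3.5 h held 50.7, 58.2, 42.6, 41.9 and 40.2 CPM. The 5 VWF-treated cultures held 1.06, 1.24, 0.920, 1.06 and 0.951 CPM, from 47 to 75 reads each. The 4 LPS-treated cultures held 2.45, 2.57, 1.36 and 1.80 CPM, from 52 to 106 reads each. The groups did not overlap, and all VWF-treated cultures lay below all LPS-treated cultures. The mean with VWF was 2.24% of the control mean and that with LPS was 4.38%, or 44.6-fold and 22.9-fold lower. In bulk cultures, fewer cells with the transcript and less transcript per cell cannot be told apart.

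The log2 fold change of Gpr183 at 3.5 h was -5.47 (SE 0.149) with VWF, the value that chose the genes, and -4.50 (SE 0.215) with LPS, which is given as a description because both comparisons share the control cultures. Between VWF and LPS it was -0.98 (SE 0.263) in the fit without an expression filter, since Gpr183 did not exceed 1.94 TPM in these cultures. With scaling by library size alone the last 2 values were -5.03 and -0.65.

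At 16 h, in cultures that the choice did not use, Gpr183 was lower than control with each treatment, and much less so with VWF than with LPS. The control cultures held 64.7, 74.9, 67.0, 59.5 and 38.3 CPM, the lowest being the replicate 5 that stood apart. The VWF-treated cultures held 25.4, 24.0, 23.7, 22.4 and 21.8 CPM. The LPS-treated cultures held 3.89, 3.86, 2.98 and 2.67 CPM. The 3 groups did not overlap, and the VWF-treated cultures were the most alike of any group, with a coefficient of variation of 6.01%. Gpr183 fell with VWF by 1.39 on the log2 scale (SE 0.165, adjusted p = 1.15e-04), to 38.5% of control, where 8.71% of genes were called. Without control 16 h replicate 5 it fell by 1.52.

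With LPS at 16 h Gpr183 fell by 4.16 (SE 0.235, adjusted p = 5.32e-07), to 5.50% of control. Both axis genes that reached 10 TPM were called, Ch25h higher and Gpr183 lower, where 27.6% of 7994 genes reaching it were called. With both cultures that stood apart left out the fall was 4.19. VWF exceeded LPS by 2.81 (SE 0.146, adjusted p = 1.95e-07), and by 2.72 without LPS 16 h replicate 4. Again both axis genes that reached 10 TPM were called, now with Gpr183 higher and Ch25h lower, where 25.5% of 7574 genes were called. With replicate number as a block, since same-numbered cultures of these groups deviated together, the VWF to LPS values were 2.85 for Gpr183 and -3.07 for Ch25h.

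From 3.5 h to 16 h Gpr183 went from 1.05 ± 0.127 to 23.5 ± 1.41 CPM in VWF-treated cultures, a log2 fold change of 4.50 (SE 0.115) that ranked 3 from the highest of 7927 genes and is given as a description. In LPS-treated cultures it went from 2.04 ± 0.568 to 3.35 ± 0.620 CPM. These groups did not overlap, but the log2 fold change of 0.72 (SE 0.277, adjusted p = 0.0648) was not called in the fit without an expression filter. Without LPS 16 h replicate 4 it was 0.84 (adjusted p = 0.0108), still under the fold threshold. Controls differed by 0.38 (SE 0.172), or by 0.52 without control 16 h replicate 5, and their cultures overlapped. The LPS effect on Gpr183 at 16 h minus that at 3.5 h was 0.36 (SE 0.286) and that of VWF was 4.11 (SE 0.215), neither tested here because both hold the 3.5 h controls. Without the cultures that stood apart they were 0.33 and 3.97.

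The surrounding gene Ubac2 did not follow Gpr183. It had 26.9 ± 1.54 CPM in control, 31.0 ± 3.47 CPM with VWF and 29.6 ± 0.244 CPM with LPS at 3.5 h. Summed B cell markers did move in the same direction as Gpr183, from 15.0 to 17.6 TPM in control to 10.2 to 12.1 TPM with VWF and 9.04 to 10.4 TPM with LPS at 3.5 h. At 16 h they lay at 19.3 to 24.9 TPM in control, 19.4 to 26.7 TPM with VWF and 5.44 to 7.80 TPM with LPS. With VWF at 16 h they thus overlapped control, unlike Gpr183. Their part in the result was not tested. Cd79b and Cd22 were the 2 genes of that list above 0.733 TPM in any culture, and the defining genes Pax5 and Ms4a1 did not exceed 0.0650 and 0.0876 TPM in any culture.

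Set side by side per length, the enzyme and the receptor exchanged places. In control cultures at 3.5 h there were 16.5 to 24.0 TPM of Ch25h and 44.0 to 62.1 TPM of Gpr183, a median ratio of 0.428 (range 0.328 to 0.456). With VWF at 3.5 h the median ratio was 653 (range 542 to 984), and with LPS 210 (range 117 to 347). At 16 h the VWF-treated cultures had a median ratio of 0.303 (range 0.0663 to 0.551), overlapping the control range of 0.137 to 0.315. Gpr183 itself was still at 38.5% of the control mean in CPM there. Ch25h was at 58.6%, a difference that was not called. The LPS-treated cultures remained at a ratio of 20.9 (range 17.3 to 31.4). The lowest of these lay above every control and VWF-treated culture at 16 h.

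**Figure D2:**
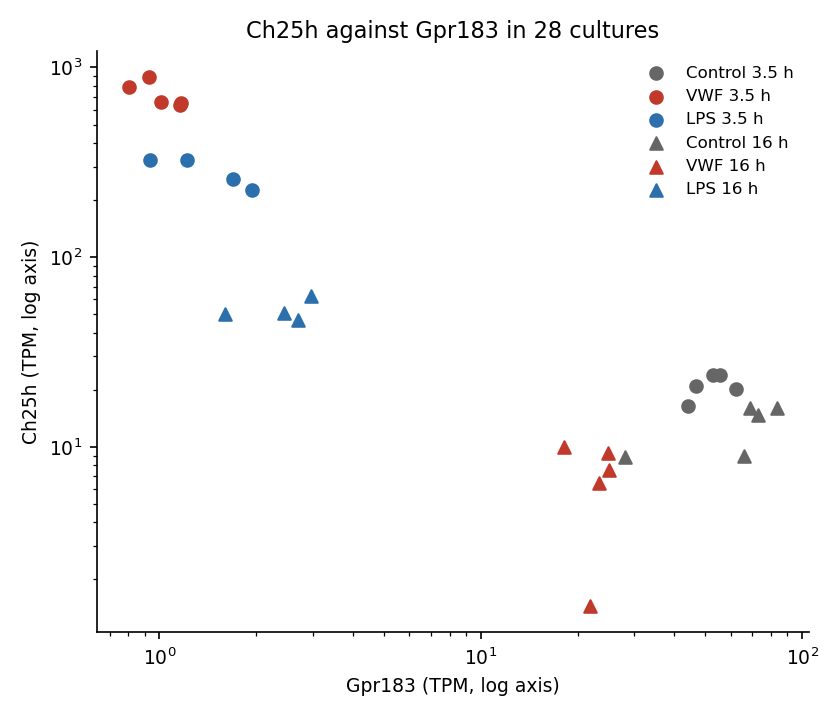
Ch25h against Gpr183 in TPM, both on log axes, with 1 point per culture, circles for 3.5 h and triangles for 16 h. The VWF and LPS cultures at 3.5 h sit at the upper left, the LPS cultures at 16 h between them and the controls, and the VWF cultures at 16 h at the lower right, at Gpr183 levels below all controls.

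**Figure D3:**
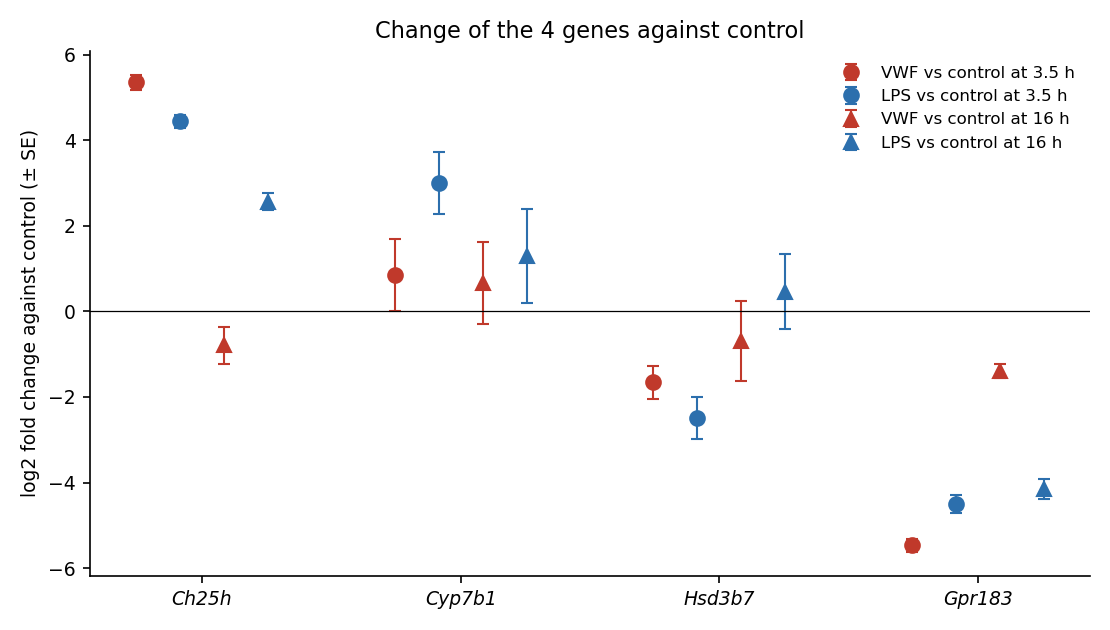
Log2 fold change against control (± SE) of the 4 genes with VWF (red) and LPS (blue) at 3.5 h (circles) and 16 h (triangles), with Cyp7b1 and Hsd3b7 from the fit without an expression filter. Ch25h and Gpr183 lie on opposite sides of 0 at 3.5 h, at 5.35 and -5.47 with VWF, and the error bars of the 2 scarce genes are wider.

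Cyp7b1, the enzyme that makes the receptor's ligand from 25-hydroxycholesterol, and Hsd3b7, which removes that ligand, were close to the detection limit. Cyp7b1 had 0 to 30 reads in any culture and did not exceed 0.717 TPM. Hsd3b7 had 0 to 60 reads and did not exceed 1.04 TPM. Neither passed the 10 TPM filter, so their values come from fits without an expression filter, in which 17.7% of 25626 genes were called for LPS against control at 3.5 h. The shares called in the other fits of this kind were 7.69% for VWF against LPS at 3.5 h, 5.21% for VWF against control at 16 h, 16.0% for LPS against control at 16 h and 16.4% for VWF against LPS at 16 h. Across time they were 15.2% for VWF, 17.2% for LPS, 5.72% for control and 12.6% for the LPS effect at 16 h minus that at 3.5 h.

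At 3.5 h Cyp7b1 had 10, 2, 2, 1 and 0 reads in the control cultures. It had 6, 4, 2, 7 and 6 reads in the VWF-treated cultures. It had 30, 11, 10 and 14 reads in the LPS-treated cultures, in CPM 0.261 or more in each against 0.175 or less in each control. With LPS Cyp7b1 rose by 3.00 on the log2 scale (SE 0.731, adjusted p = 0.00195), while the value with VWF was 0.85 (SE 0.835) as a description. For VWF against LPS the log2 fold change was -2.19 (SE 0.580, adjusted p = 0.00764). That call was lost with all 6 groups in 1 fit, at -2.20 (adjusted p = 0.0796), and without LPS 3.5 h replicate 1, at -1.74 (adjusted p = 0.0690). Without control 3.5 h replicate 1 the value with VWF against control was 2.07.

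At 16 h Cyp7b1 had 0 to 20 reads in control, 2 to 17 with VWF and 2 to 21 with LPS, and the 3 groups overlapped. None of the 3 comparisons was called, at 0.66 (SE 0.962) for VWF and 1.29 (SE 1.10) for LPS against control and -0.56 (SE 0.744) for VWF against LPS. Without the cultures that stood apart these were 0.36, 1.04 and -0.70, and without LPS 16 h replicate 1 the last was 0.12.

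Hsd3b7 was highest on average in control cultures at 3.5 h, with 42, 40, 34, 60 and 26 reads. It had 17, 5, 17, 4 and 15 reads in the VWF-treated cultures. It had 3, 10, 2 and 3 reads in the LPS-treated cultures. All treated cultures lay below all controls in CPM. With LPS Hsd3b7 fell by 2.49 (SE 0.492, adjusted p = 2.27e-04), and with VWF the log2 fold change was -1.66 (SE 0.385) as a description. Between VWF and LPS it was 0.79 (SE 0.670, adjusted p = 0.415).

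At 16 h Hsd3b7 had 0 to 23 reads in control, 0 to 23 with VWF and 5 to 21 with LPS, and none of the 3 comparisons was called. The values against control were -0.69 (SE 0.938) for VWF, or -0.96 without control 16 h replicate 5, and 0.46 (SE 0.870) for LPS. The value for LPS was -0.25 with library size alone, -0.07 without LPS 16 h replicate 4 and -0.42 with both cultures that stood apart left out, so it has no settled direction. The LPS effect on Hsd3b7 at 16 h minus that at 3.5 h was 2.88 (SE 0.965, adjusted p = 0.0394), or 2.05 (adjusted p = 0.0322) with both cultures that stood apart left out. This call was lost when any of 9 of the 18 cultures was left out (adjusted p up to 0.0872). These were replicates 1, 2 and 4 of control at 3.5 h, replicate 2 of control at 16 h, replicates 1, 3 and 4 of LPS at 3.5 h and replicates 2 and 4 of LPS at 16 h.

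The Hsd3b7 counts are uncertain for another reason. Of its exon length, 62% is shared on the same strand with the gene model Gm49388, which had 0 reads in all cultures, and 62.4% lies opposite the transcript 9430064I24Rik, which had 0 to 19 reads. How reads on shared bases were assigned is not given in the sources used here.

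**Figure D4:**
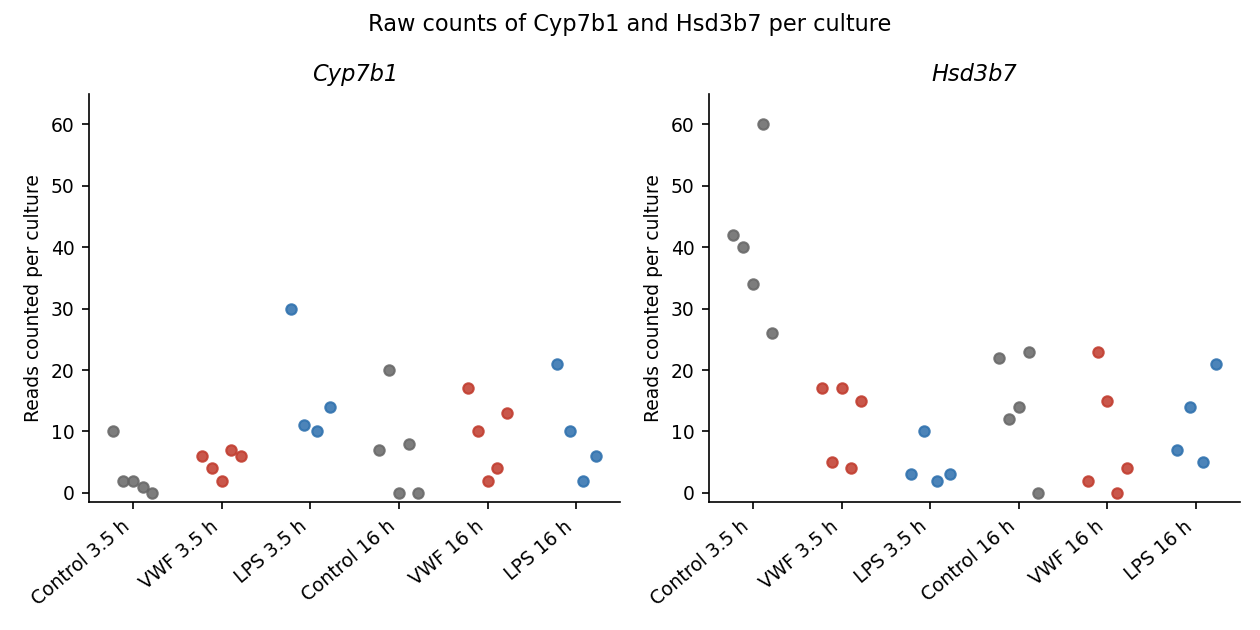
Reads counted on Cyp7b1 (left) and Hsd3b7 (right) in each culture on a linear axis, with control in grey, VWF in red and LPS in blue. Cyp7b1 is highest on average in the 4 LPS cultures at 3.5 h, with 10 to 30 reads. Its groups overlap, and at 16 h it reaches 20 reads in control, 17 with VWF and 21 with LPS. Hsd3b7 is highest in the 5 control cultures at 3.5 h, with 26 to 60 reads.

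Of 12 genes of oxysterol synthesis and turnover, the list that holds the axis enzymes, 2 reached 10 TPM (Ch25h and Cyp27a1), so that the list's median is the mean of their values. With LPS at 3.5 h 1 was called higher (Ch25h) and 0 were lower, where 24.5% of all genes were called. The median log2 fold change was 2.21, against -0.02 for all genes tested. For VWF at 3.5 h no call of Ch25h is given, because that comparison chose the genes. Cyp27a1 was not called there, where 14.7% of all genes were, and the median was 2.52 against -0.01. At 16 h with LPS 1 was higher (Ch25h) and 1 was lower, where 27.6% of all genes were called, with a median of -0.31 against -0.03 for all genes. The lower gene was Cyp27a1, the mitochondrial 27-hydroxylase, which fell by 3.18 (SE 0.417, adjusted p = 1.44e-04), which was -3.01 without the cultures that stood apart. With VWF at 16 h 0 were higher and 1 was lower, where 8.71% were called, with a median of -0.90 against -0.03, and that gene was Cyp27a1 at -1.02 (SE 0.269, adjusted p = 0.0165), or -1.13 without control 16 h replicate 5.

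Of 12 genes for esterification, sulfation and export of oxysterols, 6 were tested with VWF at 3.5 h. There were 2 called higher and 0 lower, where 14.7% of all genes were called, with a median of 0.54 against -0.01. These were the cholesterol exporter gene Abca1 (1.24, SE 0.173) and Papss2 (1.29, SE 0.203), which makes the sulfate donor. Abca1 was still higher with VWF at 16 h, by 1.42 (SE 0.109, adjusted p = 5.48e-06) or by 1.47 without control 16 h replicate 5, the 1 gene of 5 tested to be called, where 8.71% of all genes were. With LPS the 5 genes tested had medians of -0.30 at 3.5 h and 0.13 at 16 h. None passed both thresholds with edgeR or DESeq2, and with library size alone 2 were lower at 3.5 h and 1 at 16 h. Without the cultures that stood apart Abca1 was called with LPS at 16 h, at 1.04 (adjusted p = 5.40e-06) in place of 0.93. Soat1, which esterifies cholesterol, stayed under the fold threshold at 3.5 h with both agents, at -0.99 with VWF and -0.79 (adjusted p = 1.77e-05) with LPS.

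Of 25 genes of oxysterol receptors and binding proteins, 16 were tested with VWF at 3.5 h and 15 with LPS. With VWF 3 were higher and 2 lower, where 14.7% of all genes were called, with a median of -0.09. With LPS 1 was higher and 4 lower, where 24.5% were called, with a median of -0.27. Both lower counts include Gpr183, whose place with VWF was fixed by the choice. Its value with LPS shares the control cultures of that choice and is a description. Stard5, a cytosolic sterol carrier, rose with LPS by 1.94 (SE 0.0804, adjusted p = 3.74e-09) and had 2.16 (SE 0.0810) with VWF. At 16 h, of 16 tested each, 2 were higher and 2 lower with VWF, against 8.71% of all genes called, and 3 were higher and 2 lower with LPS, against 27.6%. Nr1h3, the oxysterol-activated nuclear receptor LXR alpha, rose with VWF by 2.56 (SE 0.105, adjusted p = 1.79e-07) and with LPS by 2.46 (SE 0.102, adjusted p = 7.64e-08) at 16 h, or by 2.57 and 2.45 without the cultures that stood apart. At 3.5 h it was lower with LPS, at -1.16 (SE 0.0991, adjusted p = 1.34e-06), as was Gpr183. The 2 genes differed at 16 h, where Gpr183 was lower than control with both agents.

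Among 37 lipid-sensing G protein-coupled receptor genes, the group to which Gpr183 belongs, 14 were tested with VWF at 3.5 h, with 8 higher, 5 lower and a median of 1.26 against -0.01 for all genes, of which 14.7% were called. With LPS 12 were tested, with 4 higher, 5 lower and a median of -0.36, where 24.5% of all genes were called. The 5 lower genes with each agent include Gpr183, which its choice placed there with VWF and which is a description with LPS. At 16 h 2 of 15 were higher and 2 lower with VWF, against 8.71% of all genes called, and 7 of 16 were higher and 4 lower with LPS, against 27.6%. Genes on the lower side beside Gpr183 at 3.5 h were Lpar6 (-4.66, SE 0.238, with VWF and -4.60, SE 0.129, with LPS) and the cannabinoid receptor gene Cnr2 (-4.19, SE 0.249 and -7.80, SE 0.235). On the higher side were the niacin receptor gene Hcar2 (5.31, SE 0.345 and 5.09, SE 0.380) and the medium-chain fatty acid receptor gene Gpr84 (4.75, SE 0.245 and 2.05, SE 0.230). At 16 h with VWF Gpr183 was 1 of the 2 lower genes, the other being Gpr35 at -3.06 (SE 0.368, adjusted p = 1.24e-04), or -3.27 without control 16 h replicate 5.

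**Figure D5:**
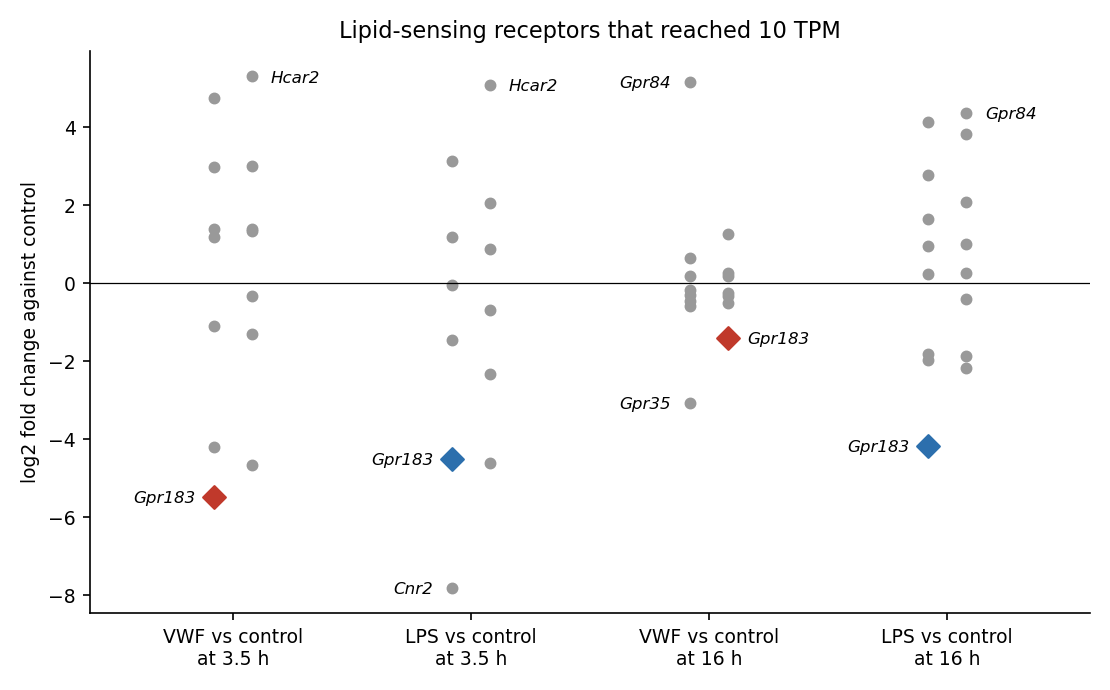
Log2 fold change against control of the lipid-sensing receptor genes that reached 10 TPM, 1 point per gene, in 4 comparisons, with Gpr183 as a coloured diamond and the highest and lowest genes named. Gpr183 is lowest of the list with VWF at 3.5 h (-5.47), which its choice fixed in advance, and with LPS at 16 h (-4.16). Cnr2 is lowest with LPS at 3.5 h (-7.80) and Gpr35 with VWF at 16 h (-3.06).

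Of 19 genes for Gi coupling, arrestins, receptor kinases and RGS proteins, which carry or end the signal of receptors such as Gpr183, 14 were tested with VWF at 3.5 h. There were 2 higher and 2 lower, where 14.7% of all genes were called, with a median of -0.24 against -0.01. With LPS 2 of 13 were higher and 3 lower, where 24.5% of all genes were called, with a median of -0.31. At 16 h 0 of 14 were higher and 5 lower with each treatment, where 8.71% of all genes were called with VWF and 27.6% with LPS, with medians of -0.23 for VWF and -0.50 for LPS against -0.03. Rgs1, an inhibitor of Gi signalling, was lower with VWF, at -2.48 (SE 0.113) at 3.5 h and -2.58 (SE 0.206, adjusted p = 7.74e-06) at 16 h, the latter -2.71 without control 16 h replicate 5. With LPS at 16 h the leading lower gene was Rgs18 at -3.37 (SE 0.205, adjusted p = 8.48e-07), or -3.25 without the cultures that stood apart.

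The genes most like each axis gene were taken by Pearson's r of log2 CPM over the 28 cultures, which share 6 treatment groups, and are given as a description. For Ch25h these were Zhx2, Cxcl2 and Dyrk2, each at 0.96. The chemokine gene Cxcl2 had 84.7 ± 31.9 CPM in control, 1142 ± 123 with VWF and 528 ± 56.6 with LPS at 3.5 h, and 22.9 ± 2.61 with VWF and 202 ± 37.4 with LPS at 16 h. It shared with Ch25h the order of VWF above LPS at 3.5 h and LPS above VWF at 16 h, whereas Zhx2 had 53.3 ± 2.86 CPM with VWF and 67.9 ± 2.26 with LPS at 3.5 h. For Gpr183 the genes were Tmem206 (0.97), Gnpda1 (0.96) and Lpar6 (0.96). Lpar6 went from 62.2 ± 3.88 CPM in control to 2.44 ± 0.991 with VWF and 2.56 ± 0.408 with LPS at 3.5 h, and to 33.0 ± 1.72 with VWF and 11.7 ± 2.81 with LPS at 16 h. For the scarce genes the highest values were 0.75 (Ppa1 for Cyp7b1) and 0.78 (Gm37795 for Hsd3b7), from counts too low to rank partners. By Spearman's rho 1 of the 3 partners was shared for Ch25h (Cxcl2) and 1 for Gpr183 (Tmem206).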

How the data were processed

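RNA from 28 BMDM cultures was sequenced in paired-end reads of 150 bases. The authors mapped the reads to GRCm38 with STAR and deposited raw counts per gene, without normalization or filter. Which annotation was counted on, whether strand was used and how multi-mapped reads were treated is not given in the sources used here. Groups and replicate numbers were taken from the sample labels. The 4 genes and all lists were chosen with earlier results of these data known.

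Counts were tested with edgeR's quasi-likelihood test (R 4.3.3, edgeR 4.0.16, robust dispersions, TMM factors) on the groups compared, over genes at 10 TPM or more in 1 or more of those cultures, with Benjamini-Hochberg adjustment. The study's methods use DESeq2, which was an alternative here (DESeq2 1.42.0). TPM used GENCODE M21 exon lengths, matched for 54495 of 54532 genes. Genes under 10 TPM in a comparison were taken from a fit without that filter, a choice made after seeing the data, as was leaving out the pair of cultures with the fewest genes detected. SE is the log2 fold change divided by the root of the F statistic. No p is given for VWF against control at 3.5 h, for the VWF effect at 16 h minus that at 3.5 h, or for Gpr183 where a comparison holds VWF-treated or control cultures of 3.5 h. Other tests of the 3 enzymes can share those cultures. Named list genes are those called with the largest changes, up to 3 a list and comparison, apart from Soat1, which was not called at 3.5 h. Of the listed genes, 2 are not reported here and were left out of their lists' counts, medians and sums after their values were known. Likeness used log2 CPM with a prior count of 2.

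Total counts had a median of 52986574. No culture duplicated another of its own group (chi-square per degree of freedom at least 15.8 over 52 pairs within groups). Pairs across groups were not compared. Same-numbered cultures deviated together in every pair only for VWF and LPS at 16 h (r from 0.16 to 0.78 over 4 pairs). The scripts were tested on simulated data. The other alternatives were median-of-ratios factors, library size alone, filterByExpr, no filter, all 6 groups in 1 fit, the replicate block and leaving out each culture. Promoter windows are RefSeq's (GRCm38.p6). Protein sequences were not used here.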

Additional observations from a re-analysis of the deposited data

Results flagged for a closer look

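Ch25h differed between times under LPS, with a log2 effect at 16 h minus that at 3.5 h of -1.87 (adjusted p = 9.34e-06 by edgeR's quasi-likelihood test). Hsd3b7 differed in the other direction, at 2.88 (adjusted p = 0.0394), from 2 to 10 reads per LPS-treated culture at 3.5 h and 5 to 21 at 16 h, and this call was lost on leaving out any of 9 cultures. Every VWF-treated culture lay above the control mean of Ch25h at 3.5 h and below it at 16 h, and the log2 difference of the effects was -6.10, which was not tested. A single culture lay far from its group in 2 cases. Replicate 1 of control at 3.5 h held 10 of the group's 15 Cyp7b1 reads, with a gap to the nearest culture of 0.779 of the group's range. Replicate 2 of LPS at 3.5 h held 10 of the group's 18 Hsd3b7 reads, with a gap of 0.844 of the range. For normally distributed values, chance alone sets apart about 1 in 20 groups by this measure, and 24 groups were examined. That rate need not hold for counts as low as these. No explanation was tested for any of these.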

How the results depend on the processing

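All values here are log2 fold changes. Of 282 other fits that did not leave out a single culture, 273 kept the direction and the side of the threshold, or, for values without a test, moved by less than the spread between replicates. With library size alone the median of all genes shifted to -0.55 for LPS against control at 3.5 h, -0.59 at 16 h and 0.46 for VWF against LPS at 16 h. Under it Ch25h in VWF against LPS at 3.5 h was 1.23, Gpr183 was -5.03 with LPS and -0.65 in VWF against LPS at 3.5 h, Hsd3b7 with LPS at 16 h was -0.25 and its LPS effect at 16 h minus that at 3.5 h was 2.79. Hsd3b7 in control at 16 h against 3.5 h was -1.71, not called (adjusted p = 0.0614), but was called with DESeq2 (-1.73) and filterByExpr (-1.72). Cyp7b1 in VWF against LPS at 3.5 h was -2.20 with all 6 groups in 1 fit, and Hsd3b7 with LPS at 16 h was -0.42 with both cultures of fewest genes left out. The causes were not tested.

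Leaving out each culture in turn changed 17 of 488 fits. Ranges were 0.80 to 1.02 for Ch25h in VWF against LPS at 3.5 h. For Cyp7b1 they were 0.56 to 2.07 for VWF against control and -2.46 to -1.74 for VWF against LPS at 3.5 h, -0.89 to 0.12 for VWF against LPS at 16 h and -1.39 to 0.51 for the VWF effect at 16 h minus that at 3.5 h. For Hsd3b7 they were -0.07 to 0.76 for LPS at 16 h, -2.01 to -1.42 for control over time, called at -1.42 without control 16 h replicate 5, and 2.36 to 3.56 for the LPS effect at 16 h minus that at 3.5 h.

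The replicate block changed no call of the 4 genes. With it Gpr183 in VWF against control at 16 h was -1.36 (adjusted p = 0.00117) and Ch25h in LPS against control at 16 h was 2.57. Depth limits Cyp7b1 and Hsd3b7 to at most 30 and 60 reads per culture. Of 220 list counts refitted with DESeq2 or library size alone, 19 differed by more than 1.5 times, none by more than 3 genes. Leaving out the cultures of fewest genes lost none of 123 calls of list genes and moved 3 of 70 list counts by more than 1.5 times. Calls gained were not part of the 123. Among those gained were Abca1 with LPS against control at 16 h (0.93 to 1.04) and Cysltr2 in the LPS effect at 16 h minus that at 3.5 h (0.44 to 1.05).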
